A study of Mus musculus with 3 samples.

Results

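The 10 mitochondrially encoded respiratory genes described here are mt-Nd1, mt-Nd2, mt-Nd3, mt-Nd4, mt-Nd5, mt-Cytb, mt-Co1, mt-Co2, mt-Co3 and mt-Atp6. They were taken by name from the 32285 genes of the deposited count matrix, and all 10 passed the expression filter of each comparison described here. Splenic B cells of 3 LDHA-deficient and 3 LDHA-sufficient mice were stained with hashtag antibodies, sorted as viable B cells and on the activation and germinal center (GC) marker GL7, pooled, and loaded together on 1 lane of a droplet device with a kit that reads the 5′ ends of transcripts. LDHA is the lactate dehydrogenase subunit that converts pyruvate to lactate, and the series asked what it does in GC B cells. The labels used here do not give the deleted allele, the Cre driver, or the age or immunization of the mice. Cells were assigned to mice by their hashtags, and each mouse is 1 replicate. The labels call the hashtag library's cells hematopoietic stem and progenitor cells, but 1785 of the 1853 cells kept fell into clusters with B cell markers.

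The mitochondrial genome is a small circle that is transcribed from both strands into long precursors, which are cut, mostly at tRNAs, into shorter messages. All of its proteins are subunits of the respiratory chain or the ATP synthase. The ND genes encode the core membrane arm of complex I, which oxidizes NADH and pumps protons. Cytb encodes cytochrome b of complex III, the 3 Co genes encode the catalytic core of complex IV, which reduces oxygen, and Atp6 encodes the proton channel subunit of the ATP synthase, complex V. The other subunits of complexes I, III, IV and V are encoded in the nucleus, as is all of complex II. Resting follicular B cells are small, while activated and GC B cells enlarge and use both glycolysis and respiration.

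All 10 genes lie on the plus strand of chromosome M in GRCm38, in the order mt-Nd1 (2751 to 3707), mt-Nd2 (3914 to 4951), mt-Co1 (5328 to 6872), mt-Co2 (7013 to 7696), mt-Atp6 (7927 to 8607), mt-Co3 (8607 to 9390), mt-Nd3 (9459 to 9806), mt-Nd4 (10167 to 11544), mt-Nd5 (11742 to 13565) and mt-Cytb (14145 to 15288). Each gene is a single exon. The first 40 bases of mt-Nd1 and mt-Nd2 are shown because, of the 10 genes, mt-Nd1 differed most between activated and follicular B-like cells and mt-Nd2 between GC and follicular B-like cells. The capitals mark the start codon, and the sequences are from the GENCODE vM21 annotation of GRCm38.
mt-Nd1: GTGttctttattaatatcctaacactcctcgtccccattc
mt-Nd2: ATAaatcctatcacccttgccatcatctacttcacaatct
Neither of these start codons is the usual ATG. The reading frames of mt-Atp8, which is not among the 10 genes, and mt-Atp6 share 43 bases (7927 to 7969), so a read that lies inside them cannot be assigned to 1 of the 2 genes. Capitals mark the start codon of mt-Atp6 and the stop codon of mt-Atp8.
mt-Atp8 and mt-Atp6, shared bases: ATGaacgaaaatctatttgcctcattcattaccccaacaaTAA
mt-Nd4l and mt-Nd4 share 7 bases in the same way, mt-Atp6 and mt-Co3 share 1, and mt-Nd5 shares 14 with mt-Nd6 on the opposite strand. mt-Co3, mt-Nd4 and mt-Cytb end in a lone T (capital below), which the poly(A) tail completes to a stop codon.
mt-Co3, last bases: gatgaggatctT
mt-Nd4, last bases: gcctgacaataT
mt-Cytb, last bases: aattatatccaT

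The pool gave 2836 barcodes with transcripts, of which 2831 were shared with the hashtag library and 1856 carried a single hashtag. The 1785 B cells numbered 237 to 361 per LDHA-deficient and 276 to 322 per LDHA-sufficient mouse, with 1127633 to 1691745 and 1407077 to 2204226 UMIs (unique molecule counts), 27398 to 36319 and 29424 to 46702 of them from the 10 genes. Ldha stood at 49.1, 47.9 and 71.8 CPM (UMIs per library total of common size) in the LDHA-deficient mice, against 236, 243 and 159 in the LDHA-sufficient mice, with a log2 fold change of -1.92 ± 0.17 (SE; adjusted p = 0.000377, edgeR's quasi-likelihood test with Benjamini-Hochberg adjustment over all genes tested). Clusters of cells were named from markers, with the 10 genes left out of the clustering, and are called GC B-like (174 cells), activated B-like (164), marginal zone B-like (216), interferon-responding B-like (193), follicular B-like (1021) and plasma cell-like (17).

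Together the 10 genes made up about 2% of all UMIs in B cells. Their summed share in all B cells was 2.23%, 2.15% and 2.43% in LDHA-deficient mice, against 2.12%, 2.04% and 2.09% in LDHA-sufficient mice. All LDHA-deficient values lay above all LDHA-sufficient ones, by a small margin, with means of 2.27% ± 0.145 and 2.08% ± 0.042 (SD, n = 3 each). The ranges overlapped when antibody segments were left out of the total (means of 2.31% and 2.16%) or when the share was averaged over cells (2.29% and 2.26%).

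Among the 10 genes, those of complexes III, IV and V were the most abundant and those of complex I the least. In all B cells mt-Co1, the catalytic subunit of complex IV, gave 0.468%, 0.455% and 0.487% of all UMIs in LDHA-deficient mice and 0.441%, 0.418% and 0.451% in LDHA-sufficient mice. mt-Cytb gave 0.397%, 0.395% and 0.442% in LDHA-deficient mice and 0.377%, 0.381% and 0.357% in LDHA-sufficient mice. The values of mt-Co1 and mt-Cytb were all higher in the LDHA-deficient mice, though the gap for mt-Co1 was narrow. Of the UMIs from the 10 genes, mt-Co1 took 20.9%, mt-Cytb 18.0%, mt-Co3 14.9%, mt-Co2 13.6% and mt-Atp6 13.2% (means over 6 mice). The 5 complex I genes took between 1.202% (mt-Nd3, the shortest) and 5.74% (mt-Nd1). Per kilobase of gene length the share of all UMIs was, among the 10 genes, highest in mt-Co2 (0.433% per kb), followed by mt-Atp6 (0.420), mt-Co3 (0.414), mt-Cytb (0.342) and mt-Co1 (0.293), while the complex I genes lay between 0.131 (mt-Nd1) and 0.0433 (mt-Nd5). A 5′ kit counts 1 end of each molecule, so a share per length is given only to compare the genes. Of the 3 other mitochondrially encoded genes, mt-Nd4l of complex I had 0.461% per kb and mt-Atp8 of complex V 0.209% per kb.

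**Figure D1:**
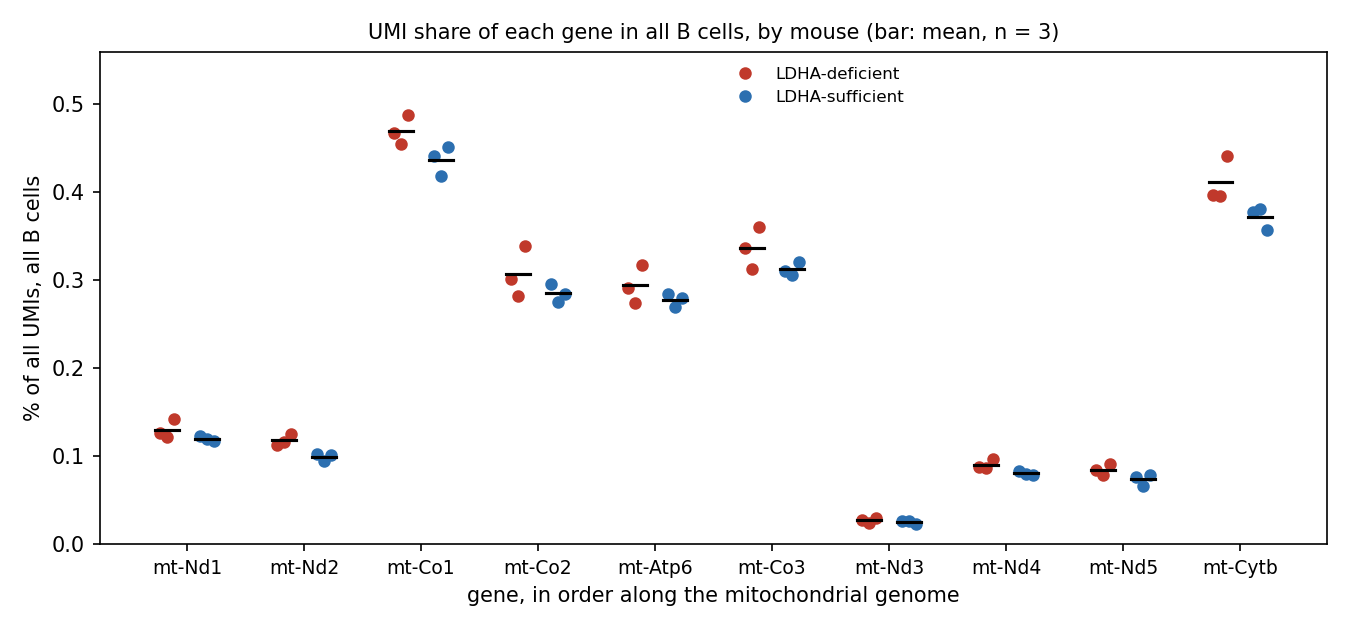
Share of all UMIs (%) of each of the 10 genes in all B cells, with 1 point per mouse, LDHA-deficient mice left and LDHA-sufficient mice right, the bar at the mean of 3 mice, and genes in their order along the mitochondrial genome. mt-Co1 and mt-Cytb are highest and mt-Nd3 is lowest in every mouse, and all LDHA-deficient mice lie above all LDHA-sufficient ones for mt-Nd2, mt-Nd4, mt-Nd5, mt-Cytb and mt-Co1, as they do for 10.1% of all genes tested.

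Among the B cell states the summed share covered a narrow range. Over the 6 mice it averaged 2.49% ± 0.318 in activated B-like cells, 2.42% ± 0.198 in marginal zone B-like cells, 2.32% ± 0.056 in interferon-responding B-like cells, 2.18% ± 0.382 in GC B-like cells and 2.12% ± 0.063 in follicular B-like cells (SD, n = 6). No state differed from its neighbour in this order by more than the SD of the difference within mice. Against follicular B-like cells, the difference within mice was 0.367 ± 0.286 percentage points for activated B-like cells (higher in 6 of 6 mice), 0.300 ± 0.224 for marginal zone B-like cells (5 of 6) and 0.198 ± 0.086 for interferon-responding B-like cells (6 of 6). For GC B-like cells it was 0.063 ± 0.397, higher in the 3 LDHA-deficient and lower in the 3 LDHA-sufficient mice. The 3 follicular clusters had means of 1.86% ± 0.0998, 2.32% ± 0.170 and 2.44% ± 0.104.

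The number of molecules per cell differed far more between states than the share. GC B-like cells held 304.9 ± 107 UMIs of the 10 genes per cell, against 80.3 ± 3.45 in follicular B-like cells (mean of 6 mice ± SD). Activated B-like cells held 164 ± 32.4, marginal zone B-like cells 165 ± 14.2 and interferon-responding B-like cells 97.0 ± 5.02. Total UMIs per cell had a similar spread, at 13780 in GC B-like, 6551 in activated B-like, 6848 in marginal zone B-like, 4188 in interferon-responding B-like and 3791 in follicular B-like cells, so the higher molecule numbers came with more RNA captured per cell.

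**Figure D2:**
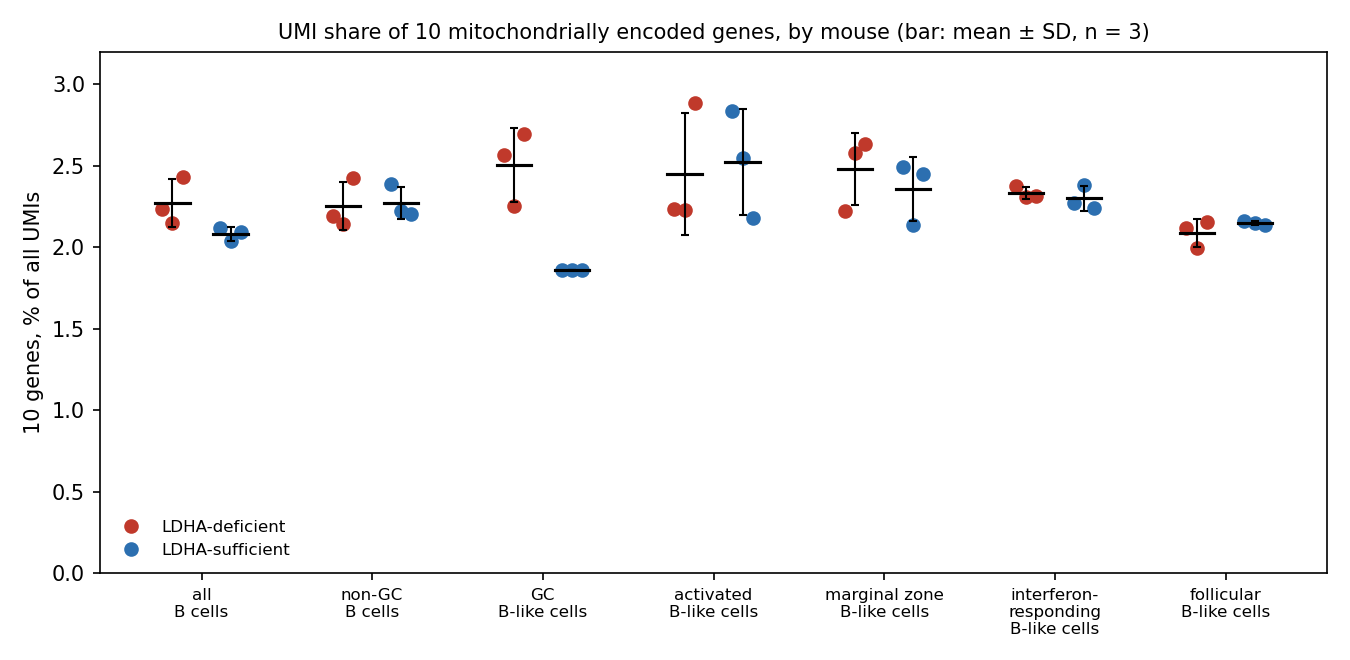
Summed share of the 10 genes among all UMIs (%) in each class of B cells, with 1 point per mouse, LDHA-deficient mice left and LDHA-sufficient mice right, and bars at the mean ± SD of 3 mice. In GC B-like cells the LDHA-deficient mice lie between 2.25% and 2.69% and the LDHA-sufficient mice at 1.86%, while the genotypes overlap or lie close in the other classes.

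In GC B-like cells against follicular B-like cells, mt-Nd2, mt-Nd4 and mt-Co1 fell, none of the 10 genes rose, and 8 had negative log2 values (edgeR's quasi-likelihood test over 5429 genes with the mouse as a block). Of all genes tested, 23.5% fell and 24.1% rose, so 3 of 10 is close to the background. The median log2 value was -0.19 over the 10 genes and -0.02 over all genes.

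mt-Nd2, a core proton-pumping subunit of complex I whose start is printed above, differed most. In GC B-like cells it gave 0.129%, 0.108% and 0.115% of UMIs in LDHA-deficient mice and 0.0790%, 0.0746% and 0.0753% in LDHA-sufficient mice. In follicular B-like cells it gave 0.115%, 0.114% and 0.121% in LDHA-deficient mice and 0.118%, 0.119% and 0.110% in LDHA-sufficient mice. The GC values of the LDHA-sufficient mice lay below every follicular value, while those of the LDHA-deficient mice overlapped them. Its log2 fold change over all 6 mice was -0.48 ± 0.112 (SE; adjusted p = 0.00031, edgeR's quasi-likelihood test), and it was called in 20 of 20 alternative settings, with log2 values between -0.76 and -0.31. As a share of the UMIs of the 10 genes alone, a measure that does not depend on the total, mt-Nd2 took 4.41% ± 0.42 in GC B-like and 5.49% ± 0.19 in follicular B-like cells.

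mt-Nd4, another proton-pumping subunit of complex I, had a log2 fold change of -0.31 ± 0.107 (adjusted p = 0.0150), and mt-Co1 one of -0.24 ± 0.0918 (adjusted p = 0.0260, both by edgeR's quasi-likelihood test). mt-Nd4 gave 0.0958%, 0.0738% and 0.0942% of UMIs in GC B-like cells of LDHA-deficient mice and 0.0717%, 0.0683% and 0.0675% in those of LDHA-sufficient mice. The follicular values of mt-Nd4 were 0.0854%, 0.0824% and 0.0848% in LDHA-deficient mice and 0.0864%, 0.0913% and 0.0788% in LDHA-sufficient mice. The LDHA-sufficient GC values were thus below all 6 follicular values, and 2 of the 3 LDHA-deficient GC values were above them. mt-Co1 gave 0.522%, 0.401% and 0.463% in GC B-like cells of LDHA-deficient mice and 0.385%, 0.380% and 0.405% in those of LDHA-sufficient mice. Its follicular values were 0.439%, 0.427% and 0.454% in LDHA-deficient mice and 0.463%, 0.443% and 0.458% in LDHA-sufficient mice, so that it was lower in GC B-like cells in the 3 LDHA-sufficient mice and in LDHA-deficient mouse 2, and higher in LDHA-deficient mice 1 and 3. Only mt-Nd2 was called without LDHA-sufficient mouse 1 or mouse 2. Without cells at 5% or more mitochondrial UMIs, a limit that removes cells by the level of the 10 genes themselves, 9 of the 10 genes fell, all but mt-Nd1, and so did 22.2% of all genes tested. That fit also held no GC B-like sum of LDHA-deficient mouse 3, which kept 4 cells, under the minimum of 5. Scaling to plain library totals in place of TMM factors left only mt-Nd2 called and moved the median of all genes to 0.16 and that of the 10 genes to -0.02, with 6 negative. As plain shares mt-Nd4 (-0.14) and mt-Co1 (-0.07) had negative values that were not called.

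Of the measured nuclear subunits of the same complexes, 23 of 36 of complex I rose (median log2 0.45), as did 6 of 9 of complex III (0.56), 10 of 11 of complex IV (0.68) and 13 of 15 of complex V (0.61), and none fell. Examples are Ndufab1, the acyl carrier subunit of complex I (1.21), Uqcr10 of complex III (0.96), Cox6a1 of complex IV (0.91) and Atp5g3, which encodes the ring subunit of the ATP synthase (0.97). The 3 remaining mitochondrially encoded subunits, mt-Nd6, mt-Nd4l and mt-Atp8, had log2 values of -0.35, -0.10 and -0.13, and none was called. Nuclear genes could be among the variable genes that the clusters were built on, so their counts describe the clusters, whereas the mitochondrially encoded genes were left out of that step. Tfam, which packages mitochondrial DNA and starts its transcription, had a log2 value of -0.36 (adjusted p = 0.117) and the mitochondrial DNA polymerase Polg one of 0.51 (adjusted p = 0.0732) (both by edgeR's quasi-likelihood test). Of 9 measured genes of mitochondrial RNA processing and stability, Slirp, which stabilizes mitochondrial messages in a complex with LRPPRC (0.63), and Rexo2, a mitochondrial oligoribonuclease (0.73), rose, Angel2 fell (-0.51), and the median was 0.15.

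In activated B-like cells against follicular B-like cells, mt-Nd1 was the only one of the 10 genes that rose and none fell (edgeR, as above), while 16.1% of all genes rose. The median log2 value was 0.16 over the 10 genes, of which 9 were positive, and 0.005 over all genes. mt-Nd1, the complex I subunit next to the quinone channel, gave 0.150%, 0.158% and 0.204% of UMIs in activated B-like cells of LDHA-deficient mice and 0.173%, 0.170% and 0.148% in those of LDHA-sufficient mice. In follicular B-like cells it gave 0.113%, 0.110% and 0.120% in LDHA-deficient mice and 0.108%, 0.121% and 0.121% in LDHA-sufficient mice. Every activated value lay above every follicular value, with a log2 fold change of 0.44 ± 0.103 (SE; adjusted p = 0.000653, edgeR's quasi-likelihood test). The call held in 19 of 20 alternatives, the exception being the coarser clustering, where the log2 value was 0.03. In that clustering 8 of the 10 genes had negative values and the median of the 10 was -0.12, against -0.09 over all genes. Without LDHA-sufficient mouse 3, mt-Cytb was called as well (13.8% of all genes rose in that fit). The 6 red cell markers summed to 32.7, 17.4 and 726 CPM in activated B-like cells of LDHA-deficient mice and to 6105, 7.04 and 35537 CPM in those of LDHA-sufficient mice, against 21.5 to 33.4 CPM in follicular B-like cells. With the 3 mice of the highest sums left out in turn, mt-Nd1 stayed called, at a log2 value of 0.40 (LDHA-deficient mouse 3), 0.42 (LDHA-sufficient mouse 1) and 0.49 (LDHA-sufficient mouse 3). Nuclear subunits that rose were 9 of 36 of complex I, 4 of 9 of complex III, 6 of 11 of complex IV and 5 of 15 of complex V, with medians of 0.20, 0.35, 0.41 and 0.30. Lrpprc, which binds and stabilizes mitochondrial messages, rose too (0.76 ± 0.217).

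Marginal zone B-like cells, which respond rapidly to blood-borne antigens, had 5 of the 10 genes called against follicular B-like cells. mt-Co1, mt-Co2, mt-Co3, mt-Cytb and mt-Atp6 rose, that is, all of the 10 genes outside complex I, and none of the 5 complex I genes passed the test. Of all genes tested 6.35% rose. All 10 genes had positive log2 values, with a median of 0.30 against 0.003 over all genes. The 5 fold changes were close to each other, at 0.34 ± 0.0909 for mt-Co1 (adjusted p = 0.00829), 0.33 ± 0.0962 for mt-Co3 (0.0162), 0.32 ± 0.0963 for mt-Co2 (0.0198), 0.32 ± 0.102 for mt-Cytb (0.0290) and 0.28 ± 0.0923 for mt-Atp6 (0.0381, all adjusted p by edgeR's quasi-likelihood test). The complex I genes had log2 values between 0.13 (mt-Nd2) and 0.32 (mt-Nd5), and whether they differ from the other 5 genes was not tested.

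In marginal zone B-like cells mt-Co1 gave 0.501%, 0.571% and 0.536% of UMIs in LDHA-deficient mice and 0.535%, 0.437% and 0.559% in LDHA-sufficient mice. Set against the follicular values given above, LDHA-sufficient mouse 2 was the one mouse whose mt-Co1 value was not higher in marginal zone B-like cells. mt-Co2, which carries the copper center that accepts electrons from cytochrome c, gave 0.307%, 0.353% and 0.366% in LDHA-deficient mice and 0.352%, 0.282% and 0.336% in LDHA-sufficient mice in marginal zone B-like cells. The follicular values of mt-Co2 were 0.292%, 0.257% and 0.297% in LDHA-deficient mice and 0.298%, 0.295% and 0.284% in LDHA-sufficient mice. It was again lower in marginal zone B-like cells in LDHA-sufficient mouse 2 alone. The number of genes called fell to 1 without LDHA-sufficient mouse 1 and to 2 without LDHA-sufficient mouse 3, to 0 without LDHA-deficient mouse 2 and to 1 without LDHA-deficient mouse 3. It was 0 with plain library totals, which moved the median of all genes to -0.12, and all 10 log2 values stayed positive under each alternative that gave a marginal zone class. Of the nuclear subunits, 4 of 36 of complex I, 1 of 9 of complex III, 5 of 11 of complex IV and 5 of 15 of complex V rose, and Tfam fell (-0.61 ± 0.203, adjusted p = 0.0416, edgeR's quasi-likelihood test).

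**Figure D3:**
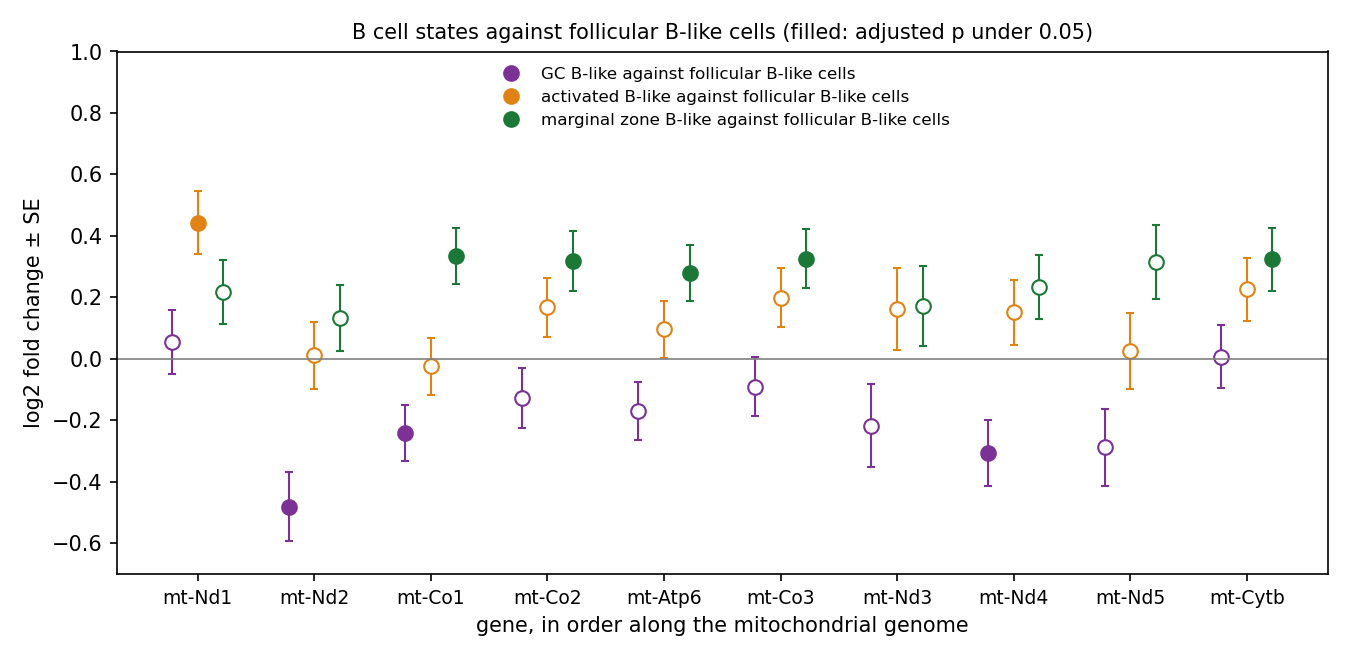
Log2 fold change ± SE of each of the 10 genes in GC B-like, activated B-like and marginal zone B-like cells against follicular B-like cells (6 mice, edgeR), with filled points where the adjusted p was under 0.05. mt-Nd2, mt-Nd4 and mt-Co1 are filled below 0 in GC B-like cells, mt-Nd1 is filled above 0 in activated B-like cells, and 5 genes outside complex I are filled above 0 in marginal zone B-like cells.

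The adjacent genes mt-Nd1 and mt-Nd2 had close to equal UMIs in follicular B-like cells and unequal UMIs in GC B-like and activated B-like cells. This ratio was chosen after the values were seen and is given without a test. mt-Nd1 over mt-Nd2 was 1.37, 1.55 and 1.17 in GC B-like cells of LDHA-deficient mice and 1.59, 1.53 and 1.37 in those of LDHA-sufficient mice. In activated B-like cells it was 1.198, 1.38 and 1.60 in LDHA-deficient mice and 1.15, 1.44 and 1.30 in LDHA-sufficient mice. In follicular B-like cells it was 0.983, 0.961 and 0.992 in LDHA-deficient mice and 0.914, 1.01 and 1.10 in LDHA-sufficient mice. Every GC and activated value lay above every follicular value, and the ratio averaged 1.06 ± 0.092 in marginal zone B-like and 1.12 ± 0.145 in interferon-responding B-like cells. A ratio of 2 genes shows that they changed unequally and does not show which of them changed.

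Between the genotypes, the 10 genes were higher in LDHA-deficient GC B-like cells than in LDHA-sufficient ones in these sums, without passing the test, and the LDHA-deficient values rest on few cells. The LDHA-deficient mice had 9, 7 and 5 GC B-like cells and the LDHA-sufficient mice 62, 75 and 16. The summed share was 2.57%, 2.25% and 2.69% in LDHA-deficient mice, against 1.86%, 1.86% and 1.86% in LDHA-sufficient mice. The LDHA-sufficient mice were almost equal, and all LDHA-deficient mice lay above them, with means of 2.50% ± 0.228 and 1.86% ± 0.002 (SD, n = 3 each). Within the larger of the 2 GC clusters, which held 7, 6 and 5 of the LDHA-deficient and 40, 42 and 11 of the LDHA-sufficient cells, the shares were 2.50%, 2.31% and 2.69% in LDHA-deficient mice and 1.80%, 1.72% and 1.64% in LDHA-sufficient mice. In the smaller cluster the genotypes overlapped. The shares there were 3.13% and 1.83% in LDHA-deficient mice 1 and 2 (2 and 1 cells). In LDHA-sufficient mice they were 2.02%, 2.16% and 2.81% (22, 33 and 5 cells).

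mt-Cytb and mt-Nd2 had the smallest p-values of this comparison among the 10 genes. mt-Cytb gave 0.501%, 0.462% and 0.575% of UMIs in LDHA-deficient GC B-like cells, against 0.333%, 0.352% and 0.333% in LDHA-sufficient ones. mt-Nd5, a proton-pumping subunit of complex I, gave 0.106%, 0.0692% and 0.111% in LDHA-deficient GC B-like cells, against 0.0590%, 0.0525% and 0.0669% in LDHA-sufficient ones. Both genes were higher in each LDHA-deficient mouse, and for mt-Nd5 mouse 2 came close to the LDHA-sufficient range. For 9 of the 10 genes every LDHA-deficient value was above every LDHA-sufficient one, as for 3.94% of all 2794 genes tested, the exception being mt-Co1, whose value in LDHA-deficient mouse 2 lay inside the LDHA-sufficient range.

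No gene of the 2794 tested was called between the genotypes in GC B-like cells by edgeR's quasi-likelihood test with Benjamini-Hochberg adjustment (0% of all genes), and so none of the 10. An unadjusted p under 0.05 was found for all 10 genes and for 7.59% of all genes, and DESeq2 called mt-Nd2 and mt-Cytb (0.143% of all genes). The count of 10 became 5 without LDHA-sufficient mouse 2 or without the filter on low counts, and 3 with each cell thinned to at most 2000 UMIs, where the median log2 value over 9 measured genes was 0.35. The log2 values were 0.72 ± 0.168 for mt-Nd2 (adjusted p = 0.210) and 0.69 ± 0.153 for mt-Cytb (adjusted p = 0.210, edgeR's quasi-likelihood test). mt-Nd5 had 0.79 ± 0.208, mt-Nd3 0.59 ± 0.215, mt-Nd1 0.58 ± 0.168, mt-Co3 0.55 ± 0.160 and mt-Co2 0.48 ± 0.166. The smallest values were 0.44 ± 0.180 for mt-Nd4, 0.42 ± 0.148 for mt-Atp6 and 0.33 ± 0.156 for mt-Co1, and the median was 0.56 against 0.02 over all genes. With plain library totals these medians were 0.46 and -0.09, and all 10 values stayed positive. The nuclear subunits of complexes I, III, IV and V had medians between -0.09 (complex I) and 0.11 (complex IV), and 3 measured subunits of complex II one of 0.14, with none called.

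Single cells with a high mitochondrial share were more frequent among the LDHA-deficient GC B-like cells. Of these cells 5 of 21 (23.8%; 3, 1 and 1 per mouse) had 5% or more of their UMIs from all mitochondrially encoded genes, against 2 of 153 (1.31%) LDHA-sufficient ones, while outside the GC the shares were 3.06% (26 of 849) in LDHA-deficient and 3.22% (24 of 745) in LDHA-sufficient mice. The 5 cells had a median of 1.38% of UMIs from the nuclear RNA Malat1, against 0.495% in the other LDHA-deficient GC B-like cells, leaving out 1 cell with under 0.5% of UMIs from the 10 genes. Over single cells the median share of the 10 genes was 1.96% in LDHA-deficient and 2.06% in LDHA-sufficient GC B-like cells, and per mouse it was 1.96%, 1.75% and 3.36% in LDHA-deficient and 2.06%, 2.06% and 2.04% in LDHA-sufficient mice. Without cells at 5% or more, the summed shares were 1.75%, 1.72% and 2.39% in LDHA-deficient mice and 1.84%, 1.84% and 1.86% in LDHA-sufficient mice, so that only LDHA-deficient mouse 3 was higher. The edgeR fit in that setting left out this mouse, whose 4 remaining GC B-like cells missed the minimum of 5. In that fit of LDHA-deficient mice 1 and 2 against the LDHA-sufficient mice, mt-Nd2 (-0.03), mt-Nd3 (-0.15), mt-Nd4 (-0.06), mt-Cytb (-0.02), mt-Co2 (-0.10) and mt-Atp6 (-0.07) had negative log2 values and the median was -0.03. The limit of 5% removes cells by the level of the 10 genes themselves.

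**Figure D4:**
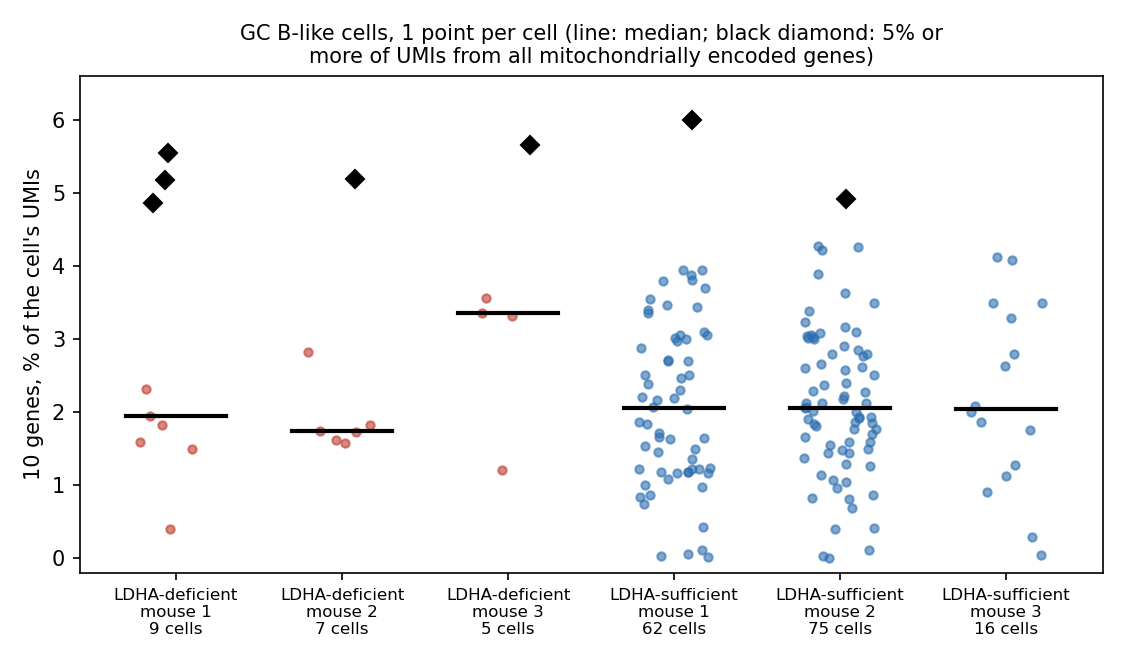
Share of the 10 genes among the UMIs of each GC B-like cell (%), by mouse, with LDHA-deficient mice left and LDHA-sufficient mice right, the line at the median, and black diamonds for cells with 5% or more of UMIs from all mitochondrially encoded genes. LDHA-deficient mice hold 5 diamonds among 21 cells and LDHA-sufficient mice 2 among 153, and the medians lie between 1.75% and 2.06% in all mice but LDHA-deficient mouse 3 (3.36%).

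The make-up of the GC B-like class differed between the genotypes as well. The 11 GC markers summed to 390 to 1810 CPM in LDHA-deficient and 1261 to 2015 CPM in LDHA-sufficient mice, with Gcnt2 at 0 in all 6 mice and Gcsam at 0 in LDHA-deficient mouse 1. The 14 markers of activated B cells summed to 208 to 298 CPM in LDHA-deficient mice, where Ccl3, Ccl4, Egr1 and Egr2 were at 0, and to 392.3 to 615.7 CPM in LDHA-sufficient mice. The smaller GC cluster held 2, 1 and 0 of the LDHA-deficient and 22, 33 and 5 of the LDHA-sufficient cells. The part of these differences in the higher shares was not tested.

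Whether the genotype difference in GC B-like cells exceeded that in other B cells was tested as an interaction with the mouse as a block. None of the 10 genes was called (edgeR's quasi-likelihood test; 16 of 9600 genes, 0.167%), with 6 at an unadjusted p under 0.05, as for 7.4% of all genes, and 0 called by DESeq2. All 10 values were positive, with a median of 0.40 against -0.17 over all genes, and 0.54 against -0.02 with RLE size factors. mt-Cytb had the smallest p-value, with a log2 difference of 0.52 ± 0.145 (adjusted p = 0.122, edgeR's quasi-likelihood test). It was called with RLE size factors (0.156% of all genes) and at Leiden resolution 1.2 (0.125%), and its value became -0.25 without the cells at 5% or more and -0.08 with each cell thinned to at most 2000 UMIs. The fit without the cells at 5% or more also held no GC B-like sum of LDHA-deficient mouse 3, which kept 4 cells, under the minimum of 5.

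Outside the GC the genotypes were close to each other. In non-GC B cells the summed share was 2.19%, 2.14% and 2.42% in LDHA-deficient mice and 2.38%, 2.22% and 2.21% in LDHA-sufficient mice, with overlapping ranges and means of 2.25% and 2.27%. By edgeR's quasi-likelihood test 0 of the 10 genes were called there (0.0701% of all 8559 genes were), with 0 at an unadjusted p under 0.05 (5.02% of all genes) and 0 called by DESeq2, and their median log2 value was -0.04. In follicular B-like cells, where the shares were 2.11%, 1.99% and 2.16% in LDHA-deficient and 2.16%, 2.15% and 2.14% in LDHA-sufficient mice, all 10 log2 values were negative, between -0.14 and -0.03. In activated B-like cells the shares were 2.23%, 2.23% and 2.88% in LDHA-deficient and 2.84%, 2.55% and 2.18% in LDHA-sufficient mice, with log2 values between -0.05 and 0.11, beside the red cell markers given above. In marginal zone B-like cells they were 2.22%, 2.58% and 2.63% in LDHA-deficient and 2.49%, 2.13% and 2.45% in LDHA-sufficient mice, with log2 values between -0.06 and 0.12. None of the 10 genes was called in these 3 states by edgeR (0.0292%, 0.0924% and 0.16% of all genes were), and each state had 0 of them at an unadjusted p under 0.05 (4.64%, 4.84% and 7.6% of all genes) and 0 called by DESeq2. A p that misses the threshold does not show that the genotypes are alike.

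**Figure D5:**
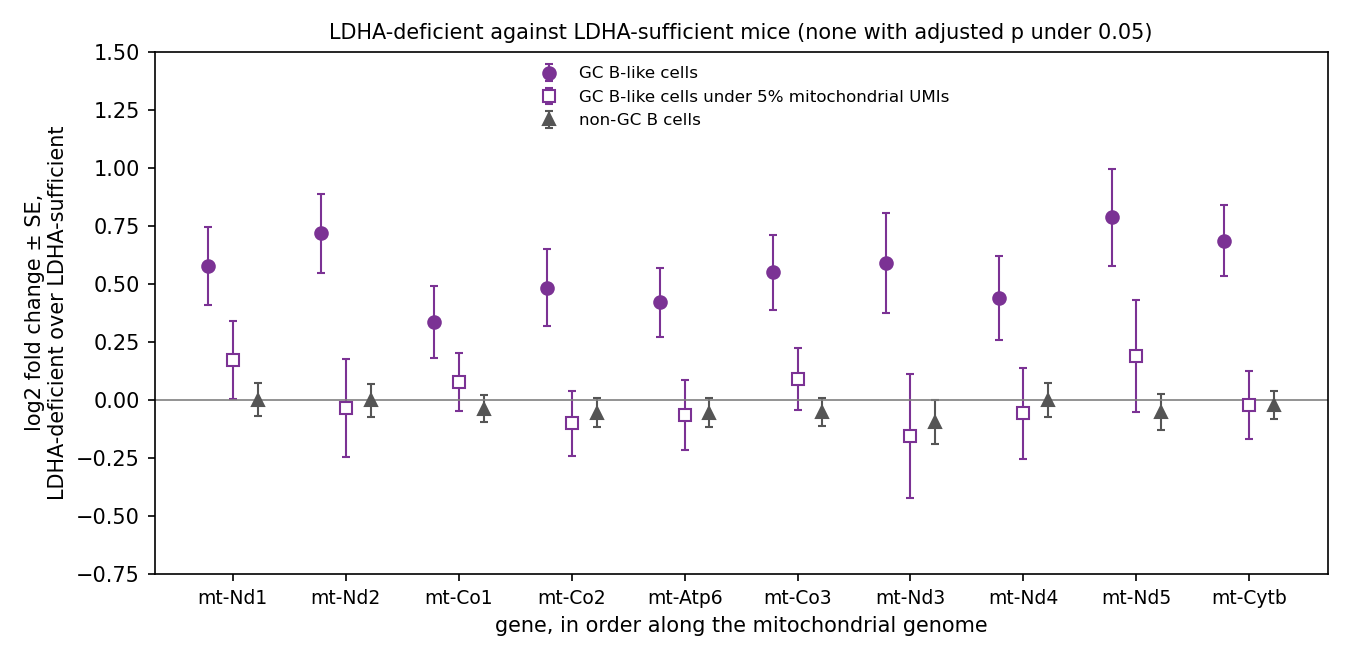
Log2 fold change ± SE of each of the 10 genes, LDHA-deficient over LDHA-sufficient mice (edgeR), in GC B-like cells, in GC B-like cells under 5% mitochondrial UMIs and in non-GC B cells. Each series has n = 3 per genotype, except that under the limit LDHA-deficient mouse 3 (4 cells) missed the minimum of 5 cells and was left out. All 10 values are above 0 in GC B-like cells, with a median of 0.56, 6 of 10 are below 0 under the limit, and those of non-GC B cells lie near 0.

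Over all B cells summed per mouse, 0 of the 10 genes were called between the genotypes (edgeR's quasi-likelihood test; 1.19% of all 9166 genes), with 1, mt-Nd2, at an unadjusted p under 0.05 (16.9% of all genes) and 0 called by DESeq2. All 10 log2 values were positive, between 0.09 and 0.26 with a median of 0.12 against 0.02 over all genes. Thinning each cell to at most 2000 UMIs turned 4 of them negative. Without LDHA-sufficient mouse 3, mt-Nd2 was called, as were 14.7% of all genes. The nuclear subunits ran the other way without being called: 34 of 36 of complex I (median -0.19), 8 of 9 of complex III (-0.10), 11 of 11 of complex IV (-0.27) and 15 of 15 of complex V (-0.27) had negative values. These sums mix states, and GC B-like cells were 21 of the 873 LDHA-deficient and 153 of the 912 LDHA-sufficient cells.

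The 10 genes varied together over the sums of 4 states (GC, activated, marginal zone and follicular B-like) in 6 mice. Pearson's r of log2 CPM between pairs of the genes ran from 0.293 to 0.935 with a median of 0.738 (45 pairs, 24 sums), and r of each gene with the sum of all 10 ran from 0.690 (mt-Nd1) to 0.965 (mt-Co3). Each gene is itself part of that sum, so a positive r with it is partly built in. The genes outside the mitochondrial genome whose levels were most like the sum, among 5331 genes, were Fcrl5 (r = 0.713), Top3b (0.695), Naa25 (0.670), Ankrd10 (0.663) and Psap (0.652). Fcrl5, an Fc receptor-like protein of marginal zone B cells, and Psap, the precursor of lysosomal saposins, were higher in marginal zone B-like than in follicular B-like cells (log2 2.83 ± 0.360 and 1.21 ± 0.260). The 24 sums share mice and states, so these values are descriptions.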

How the data were processed

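Transcripts and hashtags of 1 pooled lane were deposited as 2 matrices of raw UMI counts. Per the submitters' processing notes, the authors worked on mm10, with Seurat 4.2.1 and Cell Ranger 6.0.0 among their tools. The 10 genes and all gene lists were chosen with earlier results of these data known. The B cell receptor library was not used here.

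HTODemux of Seurat 5.3.0 (quantile 0.99) assigned hashtags: of 2831 barcodes 1856 had 1 hashtag, 820 several and 155 none. Cells with at least 500 genes and 1000 UMIs were kept (1853), with no limit on mitochondrial UMIs, since such a limit acts on the 10 genes. About 167.3 doublets within a mouse were expected. Scrublet called 0 cells, so its calls removed none of them, and as an alternative the 167 barcodes of highest score were removed. Leiden clustering in scanpy 1.11.5 with igraph 0.11.9 took 2000 variable genes, 30 components, 20 neighbours and a resolution of 0.8, without Ldha, antibody and T cell receptor segments, mitochondrially encoded, ribosomal and sex-linked genes. A cluster was named from at least 3 markers present in 10% of its cells and 1.5 times as high as in other cells. These names were rebuilt from markers and may differ from the study's.

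For each mouse and class, counts were added up and tested with edgeR 4.0.16 (R 4.3.3; filterByExpr, TMM, robust quasi-likelihood), with DESeq2 1.42.0 as an alternative. The adjusted p threshold was 0.05, over all genes kept. Contrasts between states and the interaction had the mouse as a block and used sums of at least 5 cells. Genotype tests used sums of at least 20 cells, but of at least 5 in GC B-like cells. That lower minimum was chosen with earlier results known, since LDHA-deficient mice gave few such cells. A share is UMIs of the 10 genes over all UMIs of the sum, unlike the fold changes, which use TMM factors. Scripts were tested on simulated data. The genes named beside the 10 are, of each list, up to 3 with the smallest p, Ldha, and the 5 most like the sum; Lrpprc, Slirp, Tfam and Polg fall under this rule.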

Additional observations from a re-analysis of the deposited data

Results flagged for a closer look

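The summed share of the 10 genes in GC B-like minus follicular B-like cells was positive in each LDHA-deficient mouse (0.452, 0.258 and 0.536 percentage points) and negative in each LDHA-sufficient mouse (-0.299, -0.291 and -0.280). GC B-like minus non-GC B cells gave 0.375, 0.109 and 0.272 points in LDHA-deficient mice and -0.525, -0.362 and -0.348 in LDHA-sufficient mice. Both contrasts were picked by a rule that asks for opposite directions in every mouse of the genotypes, so these directions are no separate result. They also share the same GC B-like values. The difference of the sum between the genotypes was not tested, and no single gene of the 10 passed the interaction test in edgeR with the settings of the report. Without cells at 5% or more mitochondrial UMIs, the share in GC B-like cells lay at 1.75%, 1.72% and 2.39% in LDHA-deficient and 1.84%, 1.84% and 1.86% in LDHA-sufficient mice, and that in follicular B-like cells at 1.97%, 1.98% and 2.11% in LDHA-deficient and 2.09%, 2.11% and 2.09% in LDHA-sufficient mice.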

How the results depend on the processing

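Of 190 counts of genes called under the alternatives, 167 were equal to the reported count or within 1.5 times it, and 23 were not. Most of the 190 belong to genotype comparisons, where the reported count was 0 and mostly stayed 0. The 167 therefore does not describe how stable the calls between states were. For GC against follicular B-like cells the count of 3 became 1 with plain library totals and 9 under 5% mitochondrial UMIs, and ran from 1 to 4 with 1 mouse left out. For activated against follicular B-like cells the count of 1 became 4 with plain totals, 3 with thinned cells and 0 at Leiden resolution 0.4. It ran from 1 to 2 with 1 mouse left out. Plain totals also moved the median log2 value of all genes in this contrast, from 0.005 to 0.085. With thinned cells that median was 0.006. The share of all genes called with plain totals or thinned cells is not given here. The counts of 4 and 3 therefore do not show a stronger result for the mitochondrially encoded genes. For marginal zone against follicular B-like cells the count of 5 became 3 with DESeq2 or RLE size factors, 0 with plain totals, without the filter or with hashtags called by a ratio, and 2 under 5% mitochondrial UMIs or at resolution 1.2, and ran from 0 to 5 with 1 mouse left out. Between the genotypes, DESeq2 called 2 genes in GC B-like cells, RLE factors and resolution 1.2 each called 1 (mt-Cytb) in the interaction, and the count over all B cells ran from 0 to 1 with 1 mouse left out. Under 5% mitochondrial UMIs the genotype values in GC B-like cells turned to -0.0348 (mt-Nd2), -0.155 (mt-Nd3), -0.0575 (mt-Nd4), -0.0223 (mt-Cytb), -0.101 (mt-Co2) and -0.0660 (mt-Atp6). The interaction of mt-Cytb turned to -0.250 in that setting and to -0.0767 with thinned cells. All fits of GC B-like cells under 5%, with the count of 9 against follicular B-like cells among them, also lacked LDHA-deficient mouse 3. Its GC B-like sum kept 4 cells there, under the minimum of 5. The cause of these changes was not tested.

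Averaging over cells gave shares of 2.26% (all B), 2.15% (GC B-like), 2.57% (marginal zone B-like) and 2.21% (follicular B-like) in LDHA-sufficient mice and 2.86% in LDHA-deficient GC B-like cells. Leaving out antibody segments gave 2.16% (all B), 1.89% (GC B-like), 2.24% (plasma cell-like) and 2.19% (follicular B-like) in LDHA-sufficient mice and 2.37% in LDHA-deficient interferon-responding B-like cells. With no replicate block the state contrasts called 2 (GC), 1 (activated) and 5 (marginal zone) genes. No paired analysis was possible because hashtag numbers pair no mice between genotypes. Resolution 0.4 gave no marginal zone class and no genotype values for activated or marginal zone B-like cells. The 5 to 9 LDHA-deficient GC B-like cells per mouse limit the comparison in that class.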

Other observations

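Plasma cell-like cells, too few to compare (2, 0 and 1 cells in LDHA-deficient and 7, 3 and 4 in LDHA-sufficient mice), had summed shares of 1.45%, 1.199% and 0.946% in the LDHA-sufficient mice, where antibody segments made up 40.5%, 44.5% and 55.4% of UMIs.

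A tail of B cells had almost no UMIs from the 10 genes. Below 0.5% of UMIs, a limit chosen after the values were seen, lay 50 of 873 LDHA-deficient and 49 of 912 LDHA-sufficient B cells, and 10 of all 1785 had none. These cells were not shallow, with a median of 3435 UMIs against 3932 in cells between 0.5% and 5%, and they made up 5.09% (follicular B-like) to 7.47% (GC B-like) of the cells of the 5 main states. At the other end, cells with 5% or more mitochondrial UMIs were 7.41% of marginal zone B-like, 6.71% of activated B-like, 4.02% of GC B-like, 2.07% of interferon-responding B-like and 1.86% of follicular B-like cells. The share per cell fell with the UMIs of the cell in GC, marginal zone and follicular B-like cells. Spearman's rho across cells, which are not replicates, was -0.29, -0.22 and -0.17 there. It was small in activated (-0.04) and interferon-responding B-like cells (0.09). The UMIs of the cell are also the denominator of the share.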
